A study of Mus musculus with 9 samples.

Results

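Mitochondrial fatty acid oxidation and the reactions that feed it were followed through 34 mouse genes: 5 long-chain acyl-CoA synthetases and a mitochondrial acetyl-CoA synthetase, 5 genes of the carnitine shuttle, 7 acyl-CoA dehydrogenases, 6 genes of the later steps of the cycle, 3 genes of electron transfer and 7 acyl-CoA thioesterases. They were listed by symbol, and all 34 were found, each on 1 line, among the 22527 symbols of the deposited table. Ribosome-bound RNA had been purified with an anti-GFP antibody from 3 fat depots, namely brown fat (BAT), inguinal white fat from under the skin (iWAT) and epididymal white fat from the abdomen (eWAT). The mice were C57BL/6, aged 8 weeks and labelled wild type in every group, with 3 libraries a depot and no treatment. The name of the deposited table refers to adiponectin, an adipocyte product, but the labels do not say which cells carried a GFP tag, which promoter drove it, or whether the libraries of a depot came from separate animals, so the spread between libraries may be technical. Values are FPKM (fragments scaled to transcript length and library size), which allow genes to be set beside each other within a library.

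Fatty acids are activated to acyl-CoA, passed to carnitine for transport across the mitochondrial membranes, and returned to CoA in the matrix. There each turn of beta-oxidation uses a dehydrogenase, a hydratase, a second dehydrogenase and a thiolase, and electrons of the first step pass through the electron transfer flavoprotein to ubiquinone. Thioesterases undo the activation by cleaving acyl-CoA to free acid. Brown fat is known for burning fatty acids to make heat, whereas white fat mainly stores them.

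Some libraries stood apart before any member was compared. Depth, read off the steps between low values, came to 11.1 to 21.2 M reads for BAT, 2.92 to 4.65 M for iWAT, and 16.0, 4.46 and 4.61 M for eWAT 1, 2 and 3. Depth and depot thus cannot be told apart between BAT and iWAT, where no depths overlapped. The library BAT 3 is inguinal by 1 label field and brown by its title and source. It held the uncoupling protein Ucp1 at 3054 FPKM, against 2626 and 2434 in BAT 1 and 2 and at most 3.38 in a white library. The library iWAT 1 correlated more closely with each eWAT library (0.945 to 0.963 across tested genes) than with iWAT 2 (0.899) or iWAT 3 (0.934). The summed level of 11 skeletal muscle markers was 63.2 to 155 FPKM in BAT, 1821 to 2514 in iWAT, and 227, 1303 and 1100.2 in eWAT 1, 2 and 3. BAT was lower for 8 of the 9 tested against iWAT and for 6 against eWAT, beside 22.9% and 13.5% of all tested genes. These counts were largely set by the filter of 1 FPKM in at least 3 libraries. Ckm, Myh4, Mylpf, Pvalb, Tnni2 and Tnnt3 were under 1 FPKM in every BAT library, and Tnnc2 reached it in BAT 2 alone. They thus had to be high in white libraries to be tested. Epithelial markers (6, summed) ran from 18.6 to 38.4 FPKM in BAT, 130 to 359 in iWAT and 51.3 to 176 in eWAT, almost all of it Krt5 and Krt14, while Epcam was at most at 0.124 in any library. The stromal marker Dpt was at 1.58 to 13.2 FPKM in BAT, 75.4 to 339 in iWAT and 32.7 to 64.7 in eWAT, and was lower in BAT than in both (-5.02 and -3.00). Pdgfra, Dpp4 and Pi16, listed as stromal markers with Dpt, were at most at 0.859 FPKM and were too low to test. Pdgfra was lowest in BAT as well. Dpp4 and Pi16 overlapped between BAT and iWAT and, unlike Dpt, were lower in iWAT than in eWAT. Summed adipocyte markers (6) ran from 23996 to 29008 FPKM in BAT, 31291 to 48264 in iWAT and 42214 to 59030 in eWAT, most of it Fabp4. Of these 6, Plin1 and Pparg were called higher in BAT than in iWAT (1.59 and 1.58), and 0 were called lower. Against eWAT 0 were called higher and 3 lower. The median difference of the 6 was 0.02 against iWAT and -0.69 against eWAT. Of all tested genes 34.5% were called higher in BAT than in iWAT and 20.2% than in eWAT. The part of these differences in the results below was not tested. In RNA purified from many cells at once, fewer adipocytes and less RNA per adipocyte cannot be told apart. How far the purification left out RNA of other cells was not tested either.

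Together the 34 genes made up 2.18% to 2.85% of the summed FPKM of a BAT library, against 0.392% to 0.567% in iWAT and 0.451% to 0.510% in eWAT. Their sum was 14943, 19135 and 15811 FPKM in BAT 1 to 3, 3075, 1893 and 1896 in iWAT 1 to 3, and 2878, 2511 and 2529 in eWAT 1 to 3. The lowest BAT library was thus well above the highest white one.

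**Figure D1:**
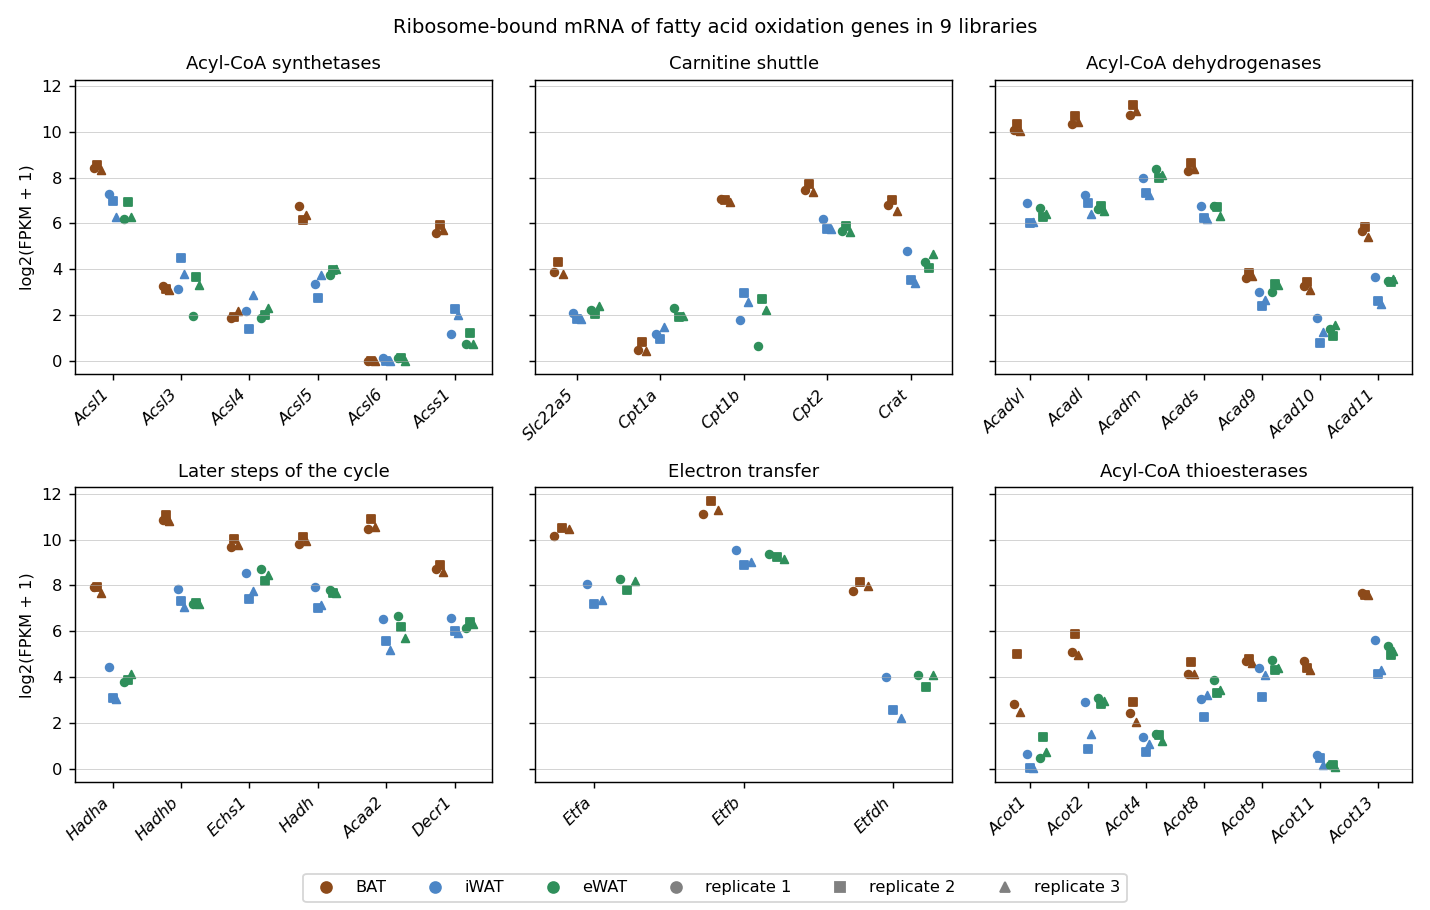
Level of each of the 34 genes in each library, as log2(FPKM + 1), in 6 panels by role, with colour for the depot and marker shape for the replicate number. BAT libraries lie above all white libraries for most genes, Cpt1a lies below them, and Acsl3, Acsl4 and Acot9 overlap with at least 1 white depot.

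BAT was compared with each white depot to ask how far ribosome-bound mRNA of the whole route was raised in the thermogenic tissue. Against iWAT, 30 of the 34 genes were higher in BAT, 1 was lower (Cpt1a), 2 were not called (Acsl3 and Acsl4) and 1 was too low to test (Acsl6), with calls at a limma adjusted p under 0.05. Of all 10374 genes tested, 34.5% were called higher and 22.9% lower in BAT (57.5% either way). Against eWAT, 27 were higher, 1 was lower (Cpt1a again) and 5 were not called (Acsl3, Acsl4, Acad9, Acot8 and Acot9), where 20.2% of all genes were called higher and 13.5% lower (33.7% either way). All 3 BAT values lay above all 3 of iWAT for 30 members (38.5% of tested genes) and above all 3 of eWAT for 29 (32% of tested genes). The same 27 genes were higher than in both white depots, as were 19.3% of all tested genes. These comparisons share the BAT libraries, so they are not independent of each other.

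The test took genes at 1 FPKM or more in at least 3 libraries. Acot11 passed that filter through BAT alone, and Acot1 reached 1 FPKM in a single white library, so both had to be high in BAT to be tested. Cpt1a passed it through white libraries alone, so it had to be lower in BAT than in at least 3 of them. Among the 31 genes that reached 1 FPKM in at least 3 white libraries, 28 were called higher against iWAT and 25 against eWAT. The median log2 difference of the 33 tested members was 2.72 against iWAT and 2.28 against eWAT, beside 0.23 and -0.02 for all genes tested. A log2 difference above 2 against both depots was found for 20 members. Without eWAT 2 and 3, eWAT is the 1 deep library and is assumed to vary like the other depots. In that fit 23 members were called higher in BAT than in eWAT (9.31% of all genes) and Cpt1a lower (4.44%), and Echs1, Acot1, Acot2 and Acot4 were no longer called.

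**Figure D2:**
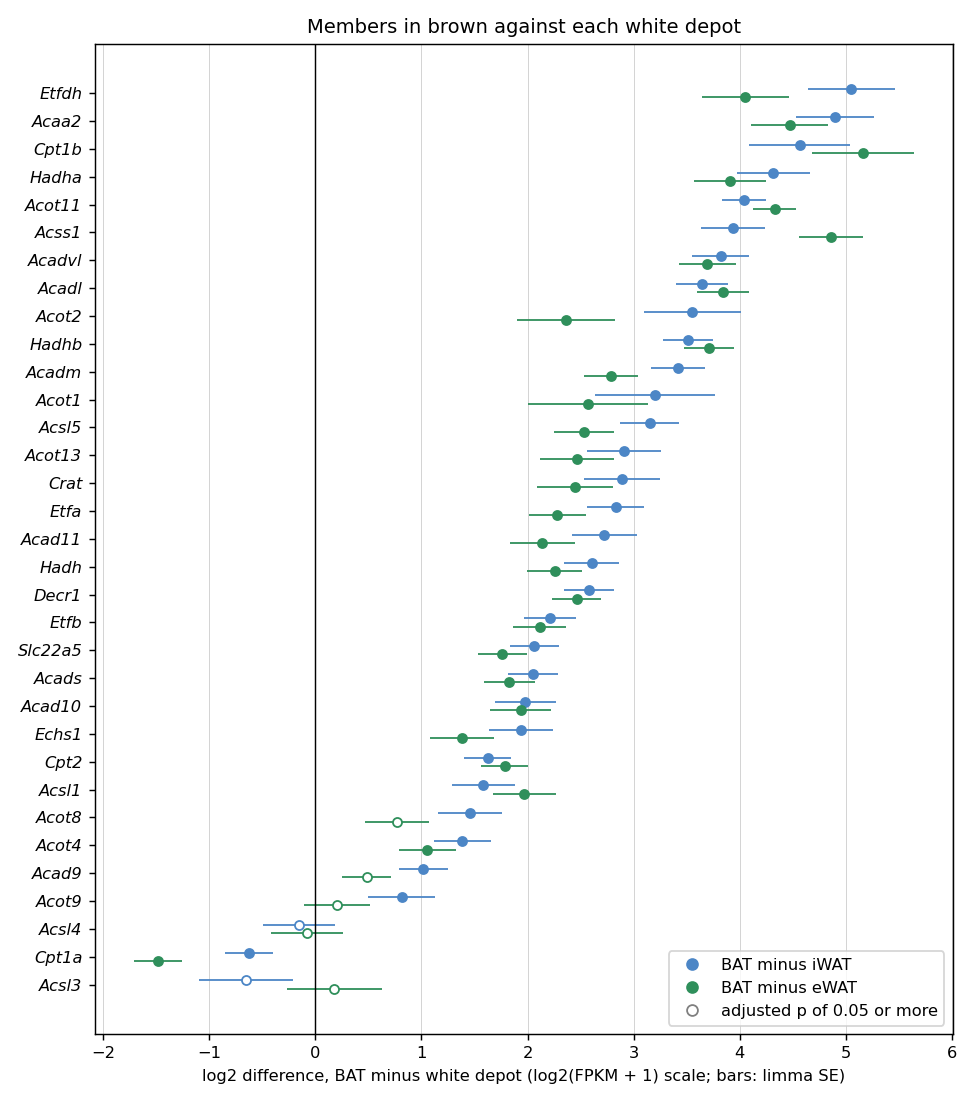
Log2 difference between BAT and iWAT and between BAT and eWAT for the 33 tested members, ordered by the first, with bars for the limma standard error and open points for an adjusted p of 0.05 or more. Differences run from 5.05 for Etfdh to -0.65 for Acsl3 against iWAT, and Cpt1a lies below 0 against both depots.

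Ribosome-bound mRNA was higher in BAT for some synthetases of the activation step and not for others. Acsl1, the main long-chain acyl-CoA synthetase of adipocytes, was at 340.1, 374 and 326 FPKM in BAT, 157, 125 and 76.8 in iWAT, and 72.7, 120.02 and 77.4 in eWAT. All BAT values lay above all white ones, with log2 differences of 1.58 (SE 0.30, limma adjusted p = 0.00166) and 1.97 (adjusted p = 0.000639). Acsl5, a synthetase found on mitochondria and the endoplasmic reticulum, was at 106, 70.9 and 82.5 FPKM in BAT, 9.22, 5.78 and 12.3 in iWAT, and 12.3, 14.6 and 15.1 in eWAT. Its differences of 3.15 and 2.53 were larger than those of Acsl1. Acsl3, a synthetase of lipid droplets, was at 8.79, 7.78 and 7.47 FPKM in BAT, 7.92, 21.6 and 13.002 in iWAT, and 2.93, 11.9 and 8.88 in eWAT. The groups overlapped, and the 95% interval of the log2 difference was -1.63 to 0.33 against iWAT and -0.80 to 1.16 against eWAT. In eWAT the deep library 1 held the lowest Acsl3 value. Acsl4, a synthetase with a preference for polyunsaturated chains, stood at 2.63, 2.81 and 3.57 FPKM in BAT, 3.56, 1.61 and 6.34 in iWAT, and 2.69, 3.07 and 3.93 in eWAT. Its groups overlapped as well, with intervals of -0.90 to 0.59 and -0.83 to 0.67. Acsl6, a synthetase known from brain, was listed at 0 in all BAT libraries and reached at most 0.0929 FPKM in a white one.

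Acss1 encodes the mitochondrial enzyme that turns free acetate into acetyl-CoA. It was at 47.4, 59.7 and 51.6 FPKM in BAT, 1.24, 3.83 and 2.995 in iWAT, and 0.652, 1.33 and 0.648 in eWAT. The groups of BAT and white fat were far apart, and the log2 differences were 3.94 against iWAT (SE 0.30, limma adjusted p = 1.11e-05) and 4.86 against eWAT (adjusted p = 3.59e-06). As a share of the summed FPKM of the Acsl genes, Acsl1 took 78.0% ± 3.9 for BAT, 80.1% ± 8.8 for iWAT and 78.0% ± 3.9 for eWAT (SD, n = 3). The Acsl5 share was 19.5% ± 3.8, 6.8% ± 4.0 and 12.5% ± 2.4, and the Acsl3 share 1.8% ± 0.1, 10.1% ± 5.0 and 6.5% ± 2.9.

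The carnitine shuttle held the members that moved in opposite directions. Cpt1a and Cpt1b encode the liver and muscle forms of the outer membrane carnitine palmitoyltransferase, the regulated entry step. Cpt1b (chromosome 15, 89246836 to 89256294, build mm9) was at 135, 128 and 121 FPKM in BAT, 2.48, 6.83 and 4.93 in iWAT, and 0.557, 5.52 and 3.61 in eWAT. Every BAT value was more than an order of magnitude above every white one, with log2 differences of 4.56 (SE 0.48, limma adjusted p = 6.04e-05) and 5.16 (adjusted p = 3.17e-05). Since Cpt1b is also a muscle gene, the 11 skeletal muscle markers are given beside it. In BAT their sum of 63.2 to 155 FPKM was mostly Acta1 (58.4 to 148), Mb was at 2.61 to 5.47, and the other 9, Ckm and Pvalb among them, were at most at 1.13. In eWAT 1, which had the lowest Cpt1b value, Ckm was at 0.080. In the other white libraries it was at 19.5 to 94.0. Ckm was highest in iWAT 1, which had the lowest Cpt1b value of iWAT. So was every other marker except Acta1 and Pvalb, the highest markers in iWAT. Acta1 was at 667.9, 1369 and 953.4 FPKM in iWAT 1 to 3, and Pvalb at 555.8, 958.8 and 576.4. Within iWAT and within eWAT, both followed the order of the Cpt1b values. The part of muscle RNA in the Cpt1b values was not tested. In the GENCODE vM1 annotation, 81.4% of the Cpt1b exon bases also belong to transcripts of the neighbouring choline kinase gene Chkb on the same strand, so the split of reads between them is uncertain. Chkb was itself at 56.1 to 66.3 FPKM in BAT and 4.94 to 7.45 in white fat.

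Cpt1a (chromosome 19, 3323301 to 3385732) went the other way. It was at 0.391, 0.769 and 0.337 FPKM in BAT, 1.24, 0.917 and 1.81 in iWAT, and 3.91, 2.74 and 2.91 in eWAT. The 3 depots did not overlap, with BAT lowest and eWAT highest. The log2 difference was -0.62 against iWAT (SE 0.22) and -1.48 against eWAT, on a scale that understates changes at such low levels. Since Cpt1a passed the filter through white libraries alone, these values are given as a description. With no filter the fall against iWAT was not called (limma adjusted p = 0.0713). It also lost its call without BAT 1, BAT 3 or iWAT 3 (adjusted p = 0.106, 0.117 and 0.118). The fall against eWAT was called in each fit that tested the gene, the one with no filter included. Within the sum of both forms, Cpt1b made up 99.6% ± 0.2 in BAT, 76.0% ± 10.99 in iWAT and 44.9% ± 28.7 in eWAT. In eWAT the deep library 1 stood at 12.5%, against 66.8% and 55.3% in eWAT 2 and 3. The ratio of Cpt1b to Cpt1a was 167 to 358 in BAT and 0.142 to 7.44 in white fat.

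The other shuttle genes were higher in BAT by less than Cpt1b. Cpt2, which returns the acyl group to CoA at the inner membrane, was at 174.9, 212 and 163 FPKM in BAT and between 48.8 and 72.1 in the 6 white libraries. Crat, the carnitine acetyltransferase that buffers acetyl-CoA, was at 112, 129 and 93.1 FPKM in BAT, 26.95, 10.6 and 9.56 in iWAT, and 18.9, 15.8 and 24.5 in eWAT. Slc22a5, the carnitine importer of the plasma membrane, was at 13.6, 19.0 and 12.8 FPKM in BAT and 2.56 to 4.31 in white fat. None of these 3 overlapped between BAT and white fat, and their log2 differences ran from 1.62 to 2.89 against iWAT and 1.76 to 2.45 against eWAT. Some reads of Slc22a5 may come from a close relative, since 26.9% of the 50-base windows of its transcript also occur in Slc22a21.

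**Figure D3:**
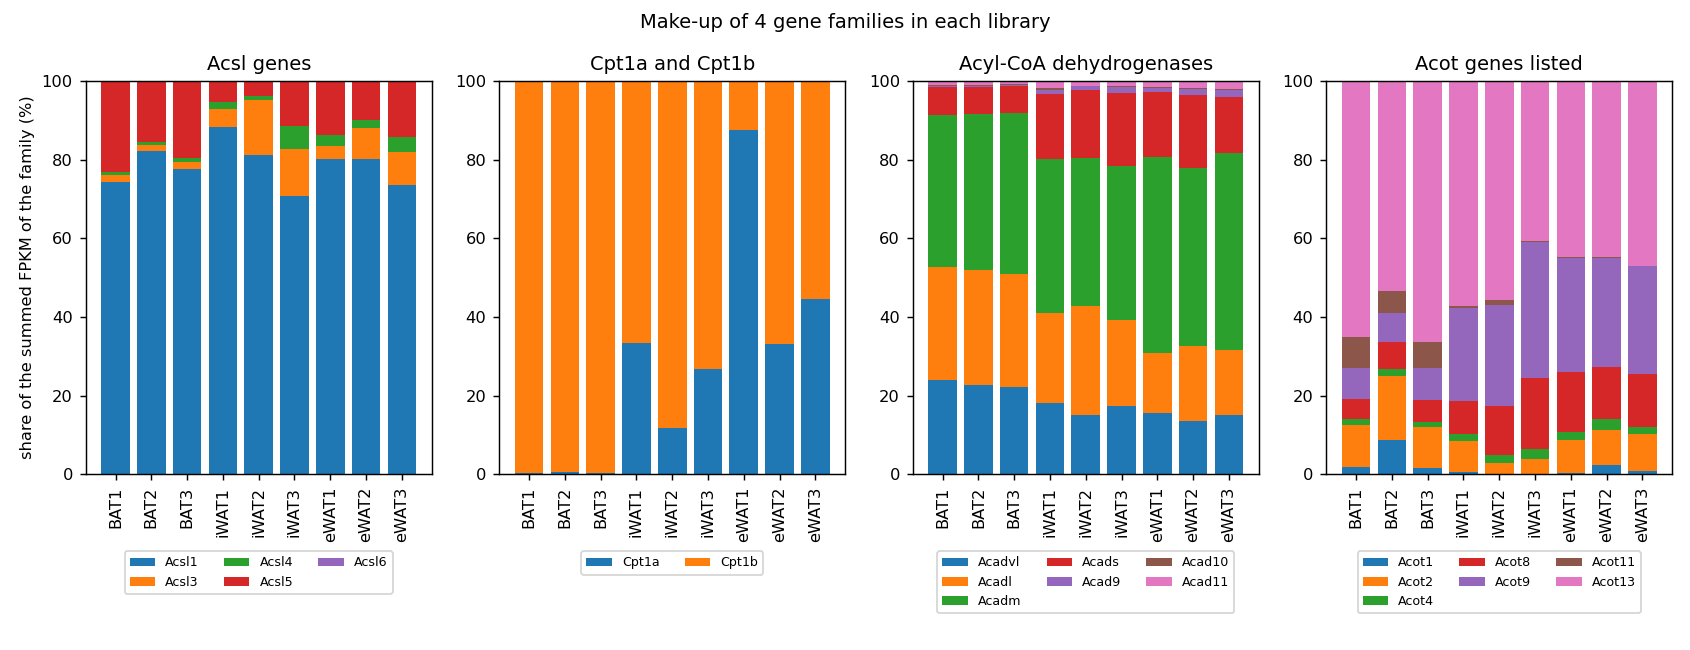
Share of the summed FPKM taken by each gene of 4 families in each of the 9 libraries (stacked bars, in percent). Cpt1b makes up over 99% of the Cpt1 pair in BAT and 12.5% to 88.2% in white libraries, and the Acads and Acot9 shares are smaller in BAT.

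The acyl-CoA dehydrogenases, which start each turn of the cycle and differ in the chain length they prefer, were higher in BAT than in iWAT in 7 of 7 and than in eWAT in 6 of 7. Acadm, the medium-chain enzyme, was the most abundant, at 1719, 2281 and 1938 FPKM in BAT, 254, 160.4 and 152 in iWAT, and 327, 256 and 276 in eWAT. Acadl, the long-chain enzyme, was at 1284, 1678 and 1372 FPKM in BAT, 148, 118 and 85.1 in iWAT, and 99.1, 108 and 91.5 in eWAT. Acadvl, the very-long-chain enzyme of the inner membrane, was at 1066, 1311 and 1055 FPKM in BAT, 118, 64.1 and 66.9 in iWAT, and 103, 77.1 and 83.3 in eWAT. The BAT values of each stood apart from the white ones, with log2 differences against iWAT of 3.41, 3.64 (SE 0.25) and 3.82 (SE 0.27) in that order and against eWAT of 2.78, 3.84 and 3.69. Acads, the short-chain enzyme, was at 316, 398 and 328 FPKM in BAT and 71.8 to 108 in white fat, a smaller difference of 2.05 and 1.83.

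The make-up of the family differed between the depots. As a share of summed dehydrogenase FPKM, Acads took 6.97% ± 0.10 for BAT, 17.4% ± 1.1 for iWAT and 16.5% ± 2.0 for eWAT. The ratio of Acadm to Acads was 5.44 to 5.90 in BAT and 2.11 to 3.46 in white fat, with no overlap. Acadl took 29.0% ± 0.2 in BAT, 24.2% ± 3.0 in iWAT and 16.9% ± 2.0 in eWAT. The remaining 3 genes were low. Acad11 and Acad10, family members with less studied substrates, were at 41.4 to 57.1 and 7.63 to 9.99 FPKM in BAT, against 4.67 to 11.5 and 0.718 to 2.62 in white fat, and both were called against both depots. Acad9, which is better known as an assembly factor of complex I, was at 11.3, 13.2 and 11.9 FPKM in BAT, 7.16, 4.27 and 5.30 in iWAT, and 7.06, 9.16 and 9.01 in eWAT. It was higher than in iWAT (log2 difference 1.02, limma adjusted p = 0.00437) and not called against eWAT (0.48, adjusted p = 0.125, 95% interval -0.03 to 0.99).

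Acadvl and Cpt1a are shown by the sequence upstream of their RefSeq start because they moved in opposite directions and both hold the nuclear receptor half-site AGGTCA. Both stretches run 5′ to 3′ on the strand of the gene, from 250 bases upstream to the base before the start, with the half-site on either strand in capitals.
Acadvl, chr11:69828931-69829180, minus strand, mm9: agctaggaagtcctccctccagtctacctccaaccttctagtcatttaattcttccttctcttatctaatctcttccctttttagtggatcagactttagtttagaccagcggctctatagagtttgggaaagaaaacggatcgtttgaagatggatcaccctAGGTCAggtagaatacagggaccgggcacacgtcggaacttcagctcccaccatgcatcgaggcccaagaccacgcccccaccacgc
Cpt1a, chr19:3323051-3323300, plus strand, mm9: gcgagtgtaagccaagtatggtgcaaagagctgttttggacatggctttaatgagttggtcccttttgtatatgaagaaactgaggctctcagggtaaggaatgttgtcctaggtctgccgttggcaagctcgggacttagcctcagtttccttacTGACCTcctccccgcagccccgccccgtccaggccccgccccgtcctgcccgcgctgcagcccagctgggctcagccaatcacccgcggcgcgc
The half-site begins 87 bases upstream of the start in Acadvl and 94 bases upstream, on the opposite strand, in Cpt1a. Searched on both strands in the 250 bases upstream, it was found in 6 of the 28 members with an entry in the RefSeq promoter table (GRCm38.p6) and in 15.8% of the 27025 symbols there. The exact tandem of this half-site with 1 base between the copies, the element bound by PPAR with RXR, was in 0 of the 28 and in 0.0407% of all symbols. With the looser half-site AGGNCA it was in 0 of the 28 and in 0.400% of all symbols. Matches this rare would seldom occur among 28 genes, so their absence says nothing about PPAR. Also searched were the ERR element (1 of the 28, Acsl6, and 0.422% of all symbols) and the CCAAT box (57.1% and 37.5%). These matches describe letters in a window and show no binding.

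The later steps of the cycle were higher in BAT than in both white depots in 6 of 6 genes. Acaa2, the thiolase that releases acetyl-CoA, was at 1421, 1931 and 1508 FPKM in BAT, 90.6, 47.1 and 34.8 in iWAT, and 102, 71.2 and 50.5 in eWAT. No white value came near those of BAT, and the log2 difference was 4.89 against iWAT (SE 0.37, limma adjusted p = 1.09e-05) and 4.47 against eWAT (adjusted p = 1.58e-05). Hadha and Hadhb encode the alpha and beta subunits of the trifunctional protein, which carries out the last 3 steps on long chains at the inner membrane. Hadha was at 241, 243 and 202 FPKM in BAT, 20.4, 7.56 and 7.28 in iWAT, and 12.96, 13.5 and 16.6 in eWAT. Hadhb was at 1837, 2176 and 1795 FPKM in BAT, 228, 158 and 132 in iWAT, and 146, 149 and 145 in eWAT. Both stood apart between BAT and white fat, with differences of 4.32 and 3.91 for Hadha and 3.51 and 3.71 for Hadhb. The ratio of Hadhb to Hadha was 7.61 to 8.96 in BAT, 11.2 to 20.9 in iWAT and 8.74 to 11.3 in eWAT.

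The subunits of the trifunctional protein lie head to head on chromosome 5 (Hadha at 30444841 to 30481702 on the minus strand, Hadhb at 30481788 to 30511133 on the plus strand, mm9), with 85 bases between their annotated starts. That stretch is shown on the plus strand as the sequence both genes share at their start.
Hadha and Hadhb, chr5:30481703-30481787, mm9: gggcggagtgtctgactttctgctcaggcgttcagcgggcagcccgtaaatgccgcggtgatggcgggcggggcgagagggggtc
Among the other members, Acot2, Acot1 and Acot4 lie in a row on chromosome 12 with gaps of 15624 and 20707 bases.

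Echs1, the hydratase for short chains, was at 816, 1052 and 879 FPKM in BAT, 367, 170.2 and 213 in iWAT, and 423, 288 and 347 in eWAT, the smallest difference of these 6 (1.94 and 1.38). Hadh, the hydroxyacyl-CoA dehydrogenase for shorter chains, was at 896, 1118 and 992 FPKM in BAT and 128 to 240.01 in white fat. Decr1, the reductase that prepares unsaturated chains, was at 421, 477 and 387 FPKM in BAT and 58.9 to 93.8 in white fat. All 3 were apart from the white libraries, Hadh by 2.60 and 2.26 and Decr1 by 2.58 and 2.46 log2 units.

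Electron transfer held the largest log2(FPKM + 1) difference of any member against iWAT, that of Etfdh, although the fold of means was larger for Acot1 (69.9) and Acot11 (61.0) than for Etfdh (32.1). Etfdh, the oxidoreductase that hands electrons from the flavoprotein to ubiquinone, was at 217, 286 and 248 FPKM in BAT, 14.96, 4.82 and 3.61 in iWAT, and 16.1, 10.9 and 15.8 in eWAT. BAT was above every white library, with log2 differences of 5.05 (SE 0.41, limma adjusted p = 1.46e-05) and 4.05 (adjusted p = 4.92e-05). The flavoprotein subunits themselves differed by less. Etfa was at 1150, 1439 and 1395 FPKM in BAT, 263, 146 and 165 in iWAT, and 309, 221 and 293 in eWAT (2.83 and 2.28). Etfb was at 2235, 3304 and 2503 FPKM in BAT, 739, 480.3 and 523 in iWAT, and 663, 606 and 565 in eWAT (2.21 and 2.11), and was the most abundant member in every library. The ratio of Etfa to Etfdh was 5.02 to 5.63 in BAT and 17.6 to 45.6 in white fat.

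Etfdh and Etfb are shown because both hold the NRF1 element upstream of their start and both rose in BAT. The capitals mark the element, and the stretches run 5′ to 3′ on the strand of the gene, leaving out bases that lie in an annotated exon.
Etfdh, chr3:79432786-79432939, minus strand, mm9: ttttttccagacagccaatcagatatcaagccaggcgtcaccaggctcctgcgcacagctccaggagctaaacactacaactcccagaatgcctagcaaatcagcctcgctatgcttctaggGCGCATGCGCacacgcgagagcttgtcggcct
Etfb, chr7:50699192-50699441, plus strand, mm9: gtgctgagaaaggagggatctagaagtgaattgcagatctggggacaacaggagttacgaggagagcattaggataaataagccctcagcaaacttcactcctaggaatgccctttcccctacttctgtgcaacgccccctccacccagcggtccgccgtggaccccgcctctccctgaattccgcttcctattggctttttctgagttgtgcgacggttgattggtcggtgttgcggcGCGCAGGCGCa
The element begins 128 bases upstream in Etfdh, where it reads the same on both strands, and 11 bases upstream in Etfb. It was in 4 of the 28 members with an entry (Acad10 and Slc22a5 as well), or 14.3%, and in 4.23% of all symbols in the same window. As above, a match is a description of the letters alone.

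Of the 7 thioesterases, Acot11 and Acot1 had to be high in BAT to be tested. The other 5 were all higher in BAT than in iWAT, and 3 of them higher than in eWAT. Acot11, known as the brown fat inducible thioesterase, was at 24.6, 19.9 and 18.8 FPKM in BAT, 0.511, 0.394 and 0.133 in iWAT, and 0.122, 0.121 and 0.0390 in eWAT. White levels were a small part of those in BAT, and the log2 difference was 4.04 and 4.33 (SE 0.21), given as a description. Acot13, a thioesterase bound to mitochondria, was the most abundant, at 203, 190.0 and 191 FPKM in BAT, 48.6, 16.8 and 18.9 in iWAT, and 40.1, 30.1 and 33.8 in eWAT (2.91 and 2.46). Acot2, the matrix enzyme, was at 33.2, 57.7 and 30.1 FPKM in BAT, 6.55, 0.812 and 1.84 in iWAT, and 7.44, 5.99 and 6.78 in eWAT (3.55 and 2.36). Acot1, its cytosolic relative, was at 6.02, 31.2 and 4.52 FPKM in BAT, with BAT 2 far above the others, and at 0.0174 to 1.58 in white fat. Acot1 and Acot2 are uncertain, since 34.8% of the 50-base windows of the Acot1 transcript also occur in Acot2.

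The other thioesterases differed less. Acot4 was at 4.35, 6.44 and 3.15 FPKM in BAT and 0.647 to 1.85 in white fat, and its call against eWAT was lost without BAT 2 (adjusted p = 0.0575) or eWAT 3 (adjusted p = 0.0513). Acot8, a peroxisomal enzyme, was at 16.4, 24.3 and 16.5 FPKM in BAT, 7.18, 3.79 and 8.42 in iWAT, and 13.6, 8.92 and 9.69 in eWAT. Its BAT values lay above all white ones, and it was called against iWAT (1.46, limma adjusted p = 0.00278) and not against eWAT (0.77, adjusted p = 0.0727, 95% interval 0.10 to 1.44). Acot9, a mitochondrial enzyme, was at 24.7, 26.3 and 23.2 FPKM in BAT, 19.9, 7.75 and 16.2 in iWAT, and 26.1, 18.6 and 19.8 in eWAT. It overlapped with eWAT (0.21, interval -0.49 to 0.90), and its call against iWAT (0.81, adjusted p = 0.0457) was lost without BAT 1, 2 or 3, iWAT 2 or 3, or eWAT 2 or 3, and with median-ratio scaling (adjusted p = 0.121). Within the summed thioesterases, Acot9 was 7.8% ± 0.4 in BAT, 27.9% ± 5.9 in iWAT and 28.1% ± 0.9 in eWAT.

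The white depots were compared with each other to ask whether the route differed between a subcutaneous and a visceral depot. No member was called (0 of 33), where 1.74% of all tested genes were called (0.231% higher and 1.5% lower in iWAT). At an unadjusted p under 0.05 there were 8 members, a share near the 26.1% of all tested genes. The smallest adjusted p was that of Cpt1a, with a value of -0.86 log2 units (SE 0.22, limma adjusted p = 0.0767). Of the tested members 24 had a lower and 9 a higher fitted value in iWAT, with a median of -0.35 beside -0.18 for all genes. The values of the 2 depots did not overlap for Acot11, higher in iWAT (as for 3.1% of tested genes), and for Cpt1a, Acadm and Acot8, lower in iWAT (19.5%). In 27 of 34 genes the highest of the 3 iWAT values was in iWAT 1, the library nearest to eWAT. The share over all genes was not counted, so a trait of the members cannot be told from one of the library.

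Without iWAT 1, that depot is left with iWAT 2 and 3 alone. The library left out stood out in these same values as the one nearest to eWAT. Its removal thus favours a wider gap and more calls, and the results are given as a description. In that fit 13 members were lower and 1 was higher in iWAT than in eWAT, where 27.6% of all genes were called lower and 4.42% higher. The 13 were Acot2 (-1.77, limma adjusted p = 0.00450), Etfdh (-1.54, adjusted p = 0.00267), Acad11, Acot13, Crat, Echs1, Acadm, Acot9, Hadha, Cpt1a, Etfa, Acad9 and Hadh, the last by -0.62. Acss1 was the higher one (1.25, adjusted p = 0.00565). Acadl, Hadhb and Cpt2 had differences of 0.01, -0.02 and 0.01 in that fit. Adipocyte markers moved with this comparison: with all libraries the median of those 6 genes was -1.16 in iWAT against eWAT, and their sum was 48264 FPKM in iWAT 1 and 31291 and 37547 in iWAT 2 and 3. The part of adipocyte content in these values was not tested.

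**Figure D4:**
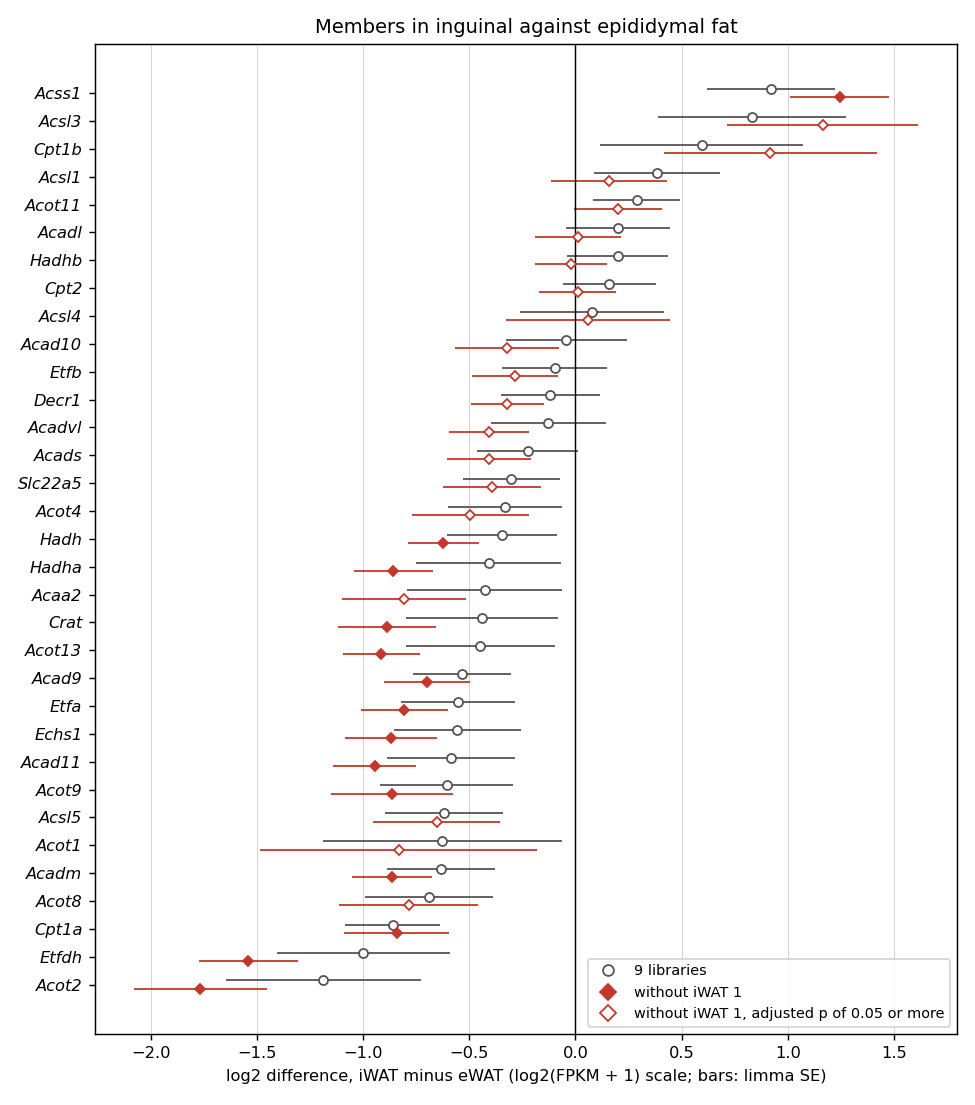
Log2 difference between iWAT and eWAT for the 33 tested members with all 9 libraries (circles) and without iWAT 1 (diamonds, filled where the adjusted p is under 0.05), with bars for the limma standard error. No circle passes the threshold, and 13 diamonds below 0 and 1 above 0 do.

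Further genes of the pathway were followed in 4 lists, to be read against the 34.5% and 20.2% of all genes called higher in BAT than in iWAT and eWAT and the medians of 0.23 and -0.02. Of 13 tested genes for the remaining steps of mitochondrial oxidation (14 listed), BAT was higher for 12 against iWAT and for 11 against eWAT, with none lower and medians of 2.48 and 1.64. Slc25a20, the carrier that exchanges acylcarnitine for carnitine, was at 342, 400 and 350 FPKM in BAT and 10.98 to 30.0 in white fat (4.25 and 4.00). The enoyl-CoA isomerases Eci1 (3.38 and 2.71) and Eci2 (2.83 and 1.78) and the synthetase Acsf2 (2.83 and 2.95) were higher as well. Acacb, which makes the malonyl-CoA that inhibits the entry step, was at 35.1, 28.8 and 25.7 FPKM in BAT and 3.47 to 10.9 in white fat (2.15 and 2.44). Dbi, the acyl-CoA binding protein, was not called, at 5742 to 6715 FPKM in BAT and 3861 to 9485 in white fat.

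Of 9 tested genes among 20 other synthetases and thioesterases, BAT was higher for 7 against iWAT and for 5 against eWAT, with none lower and medians of 0.98 and 0.75. Without Slc27a2 the counts were 6 and 4 of 8. Slc27a2, a synthetase for very long chains that passed the filter through BAT alone, was at 84.3, 211 and 87.0 FPKM in BAT, while no white library exceeded 0.670, with 2 white libraries listed at 0. Acsm3, a medium-chain synthetase of mitochondria, ranged from 23.1 to 29.2 FPKM in BAT and did not exceed 2.32 in white fat (4.24 and 3.52), with 1 iWAT library listed at 0. Acss2, the acetyl-CoA synthetase of cytosol and nucleus, differed by less than its mitochondrial relative Acss1 (1.45 and 2.06), and the thioesterase Them4 by 1.44 and 1.30. Slc27a1, a fatty acid transport protein, overlapped between the depots at 27.7 to 68.1 FPKM in BAT and 19.3 to 45.8 in white fat. Of 7 tested dehydrogenases of other pathways that use the same flavoprotein (8 listed), 7 were higher than in iWAT and 4 than in eWAT, with medians of 1.84 and 1.16. Among them Gcdh of lysine breakdown was higher against both depots (2.25 and 1.95), while Ivd of leucine breakdown was called against iWAT (1.09) and not against eWAT (0.20, limma adjusted p = 0.642).

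Of 15 tested regulators of these genes (18 listed), 9 were higher and 2 lower in BAT than in iWAT, and 8 were higher and 1 lower than in eWAT, with medians of 1.24 and 0.75. Of all genes 22.9% and 13.5% were called lower. Ppara, Ppargc1b, Esrrg and Prkaa2 reached 1 FPKM in fewer than 3 white libraries (Prkaa2 in none) and so needed BAT to be tested, and of the other 11, 5 were higher and 2 lower than in iWAT and 4 higher and 1 lower than in eWAT. Ppara, the nuclear receptor that switches on oxidation genes, was at 18.6, 18.5 and 17.96 FPKM in BAT, 0.703, 1.26 and 0.649 in iWAT, and 0.612, 1.21 and 0.739 in eWAT. The groups were far apart (3.38 and 3.40). Pdk4, the kinase that shuts off pyruvate dehydrogenase, was at 479, 449.7 and 538 FPKM in BAT, 13.9, 8.47 and 11.6 in iWAT, and 6.02, 2.05 and 10.4 in eWAT (5.33 and 6.29). The mitochondrial deacetylase Sirt3 (4.05 and 3.16) and the coactivator Ppargc1b (2.02 and 1.96) were higher too. Ppargc1a, the related coactivator, overlapped between depots, at 4.36, 3.79 and 15.1 FPKM in BAT and 1.35 to 8.996 in white fat. The genes called lower, named after their values were seen, were the receptor partner Rxra (-1.02 and -1.69) and, against iWAT, the corepressor Ncor1 (-1.62). Between iWAT and eWAT no gene of these 4 lists was called.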

How the data were processed

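Ribosome-bound RNA of 3 libraries each of brown, inguinal and epididymal fat was analysed from 1 table of gene values. The authors' deposited values were read as FPKM. Per the submitters' processing notes, TopHat and Cufflinks were used with genome build mm9; versions, annotation and strand setting are not given in the sources used here, and the header names no unit. Libraries were grouped by title. Of lines that share a symbol (259 symbols, no member), the one of highest mean was used. Genes at 1 FPKM or more in at least 3 of 9 libraries (10374) entered 1 limma 3.58.1 fit in R 4.3.3 on log2(FPKM + 1), with an intensity trend, 3 group means, 6 residual degrees of freedom and Benjamini-Hochberg adjustment over all genes. The fit was tested on simulated data with independent noise for each value. These held no shared library or depth effects, so that test does not cover such effects. Depth was estimated from genes with 1 transcript of at least 1000 bases, whose low values step by reads, with a length offset of 200 bases. The depth of best fit was taken. Per library 44.3% to 63.5% of those values came within 0.15 of whole reads, the least in eWAT 1. Part of such a share would arise without any steps, so the depths are estimates. With other offsets they stayed between 2.84 and 21.6 M reads.

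The members, the other lists and the alternatives were chosen with earlier results of these data known. Named in full were the 8 largest called members per comparison with BAT, members called against the main direction and those not called; of each other list up to 4 called genes. Acacb, Dbi, Slc27a1, Ivd, Ppargc1a, Esrrg and Prkaa2 were named after their values were seen, as were further members. Replicate numbers are shared between depots. Same-numbered libraries of iWAT and eWAT had correlated deviations from their depot's mean (0.634, 0.534 and 0.165). The correlation was -0.324 to 0.121 between BAT and iWAT and -0.388 to 0.103 between BAT and eWAT. By the rule that each exceed 0.1, the numbers would pair iWAT with eWAT alone, from the values and not the labels. Some libraries of unlike number also exceeded 0.1, among them iWAT 2 with eWAT 3 (0.228) and iWAT 3 with eWAT 2 (0.105). So did BAT 2 with eWAT 1 (0.374) and with iWAT 1 (0.335), while iWAT 2 with eWAT 1 was at -0.576. The pairing is thus uncertain. Gene positions are from GENCODE vM1 on mm9. Promoter sequences are from RefSeq (GRCm38.p6; 28 of 34 members matched, without Cpt1b, Crat, Acad9, Acaa2, Decr1 and Acot13) and were located in mm9 by exact match. The stretch between Hadha and Hadhb was read from mm9.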

Additional observations from a re-analysis of the deposited data

How the results depend on the processing

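No member changed direction with a call under any of the 19 alternatives, and 1816 of 1866 values of a member under an alternative kept their side of the threshold. The counts of members higher in BAT stayed at 27 to 30 against iWAT and 23 to 29 against eWAT. The single lower call against iWAT, Cpt1a, became 0 with no filter, with a mean of at least 5 FPKM (where the gene was not tested), with quantile normalization and with the replicate block (adjusted p = 0.0551), and the leave-one-out counts ran from 0 to 1; the lower call against eWAT became 0 at a mean of 5 FPKM for the same reason. Quantile normalization lowered the median difference of members from iWAT to 2.10; leaving out 1 library gave 2.51 to 3.08 against iWAT, 2.08 to 2.37 against eWAT and -0.62 to -0.17 for iWAT against eWAT. Between the white depots array weights called 1 member higher and 5 lower, and leave-one-out counts ran from 0 to 1 and from 0 to 13, the largest of each without iWAT 1. The cause of these changes was not tested.

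Over all genes, a mean of 5 FPKM, which tests fewer genes, gave 3783 calls for BAT against iWAT (5961 before), 2244 for BAT against eWAT (3492 before) and 79 for iWAT against eWAT (180 before). Array weights gave 6625 and 1970 for the last 2, and dropping eWAT 2 and 3 gave 1427 and 44. For iWAT against eWAT a pseudocount of 0.1 gave 90, no filter 93, median-ratio scaling 110 and the pair alone 28. Leave-one-out counts ran from 4535 to 6843, from 2357 to 4443 and from 50 to 3321 in the 3 comparisons. For BAT against iWAT, median-ratio scaling gave 3008 higher and 2913 lower in place of 3583 and 2378. The replicate block was fitted over all 9 libraries, BAT included, although the numbers did not pair BAT with white fat. It changed no member call for iWAT against eWAT. A fit that pairs iWAT with eWAT without BAT was not run. Depths at or below 4.65 M reads limit members under 1 FPKM, which rest on few reads.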

Other observations

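In 27 of the 33 members above 0 in BAT the highest of the 3 BAT values was in BAT 2, the deepest library. Here too the share over all genes was not counted. Acot1 was at 31.2 FPKM there against 6.02 and 4.52 in BAT 1 and 3, and Slc27a2 at 211 against 84.3 and 87.0, whereas Acsl5 had its lowest BAT value in BAT 2 (70.9 against 106 and 82.5). These genes were picked after their values were seen, and no test between single libraries is possible.

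The antisense neighbour of Acadvl, Dvl2, shares 42.9% of the Acadvl exon bases and was at 1.00 to 1.40 FPKM in BAT and 0.503 to 1.57 in white fat, and Fam151a, antisense to 20.8% of the Acot11 exon bases, was at most at 0.137 FPKM in BAT. Snx21, antisense to 12.2% of the Acot8 exon bases, was at 30.4 to 37.0 FPKM in BAT and 6.89 to 14.4 in white fat. The strand setting is not given in the sources used here, so reads of such overlaps cannot be told apart.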
